A study of Mus musculus with 20 samples.

Results

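Chondroitin sulfate proteoglycans (CSPGs) and tenascins were followed across the cell clusters of sham and contused mouse spinal cord, as 8 genes chosen by symbol from the 16003 genes of the single-cell count table: *Vcan*, *Ncan*, *Bcan*, *Cspg4*, *Cspg5*, *Ptprz1*, *Tnc* and *Tnr*. All 8 were in the table, and none was left out by a filter. The 6 libraries were made with droplet 3' chemistry from female C57BL/6J mice of 8 to 10 weeks, each library from 1 pool of animals. Injured mice received a T9 contusion and were taken at 7 or 28 days post-injury (dpi), and sham mice received a laminectomy. Mice of every group were fed either vehicle chow or chow with 1200 ppm of PLX5622, an inhibitor of the Csf1 receptor that depletes microglia, from 2 weeks before surgery until the cords were collected. Each of the 3 conditions on each diet was therefore 1 library with no replicate, and 1 sham library per diet, which combined cords from both times, served both comparisons with sham. No p-value is given, all intervals are 95% intervals that cover counting error only, and every ratio compares 2 libraries.

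Lecticans are secreted core proteins that carry chondroitin sulfate chains and bind hyaluronan, and they include versican (*Vcan*), neurocan (*Ncan*) and brevican (*Bcan*). Tenascin-C (*Tnc*) and tenascin-R (*Tnr*) are large glycoproteins that link lecticans to each other and to cell surfaces, while NG2 (*Cspg4*), neuroglycan C (*Cspg5*) and the receptor-type phosphatase zeta (*Ptprz1*, which also yields the secreted proteoglycan phosphacan) span the membrane. In the injured spinal cord these molecules accumulate around the lesion, where chondroitin sulfate chains are known to restrict axon growth, and NG2 is a standard marker of oligodendrocyte progenitor cells (OPCs) and of pericytes.

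The libraries held 1795, 7439 and 9846 cells on vehicle (sham, 7 and 28 dpi) and 492, 504 and 940 cells on PLX5622, with totals between 2606149 and 35694246 unique molecular identifiers (UMIs, counted transcript molecules). Cells carried 1 of 14 cluster numbers from the deposited table. Each cluster was called astrocyte-like, microglia-like and so on from a fixed marker list, and the short names are used here. All 7 astrocyte markers were highest in the astrocyte cluster, and 6 of 7 oligodendrocyte lineage markers in theirs, whose leading genes included *Gpr17*, *Neu4* and *C1ql1*, genes of progenitors and newly forming oligodendrocytes. The pericyte or fibroblast cluster was led by the fibroblast genes *Lum*, *Aspn* and *Dpt*, and the cycling cluster carried all 12 genes of a myeloid list in every library (7674 to 35996 CPM summed). The table shared 44 barcodes between libraries. A level is given in CPM, the UMIs of a gene summed over the cells of 1 cluster in 1 library per 1000000 UMIs of those cells. Clusters were formed from the same cells' expression, so the order of clusters is a description.

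The 8 genes lie on 7 chromosomes of the GRCm38 assembly, and *Cspg4* (chromosome 9, 56865033 to 56899870, forward strand) and *Cspg5* (chromosome 9, 110243783 to 110262576, forward strand) share one. *Vcan* lies on chromosome 13 (89655312 to 89742509, reverse), *Ncan* on chromosome 8 (70093085 to 70120873, reverse), *Bcan* on chromosome 3 (87987531 to 88000230, reverse) and *Ptprz1* on chromosome 6 (22875502 to 23052916, forward). *Tnc* lies on chromosome 4 (63959785 to 64047015, reverse) and *Tnr* on chromosome 1 (159523769 to 159931729, forward). No annotated gene overlaps *Bcan*, *Cspg4* or *Ptprz1*, and none of the genes that overlap the others was in the count table.

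The promoters of 3 members are shown because these genes had 3 different distributions over clusters, *Bcan* highest in astrocytes, *Tnr* almost entirely in the oligodendrocyte lineage and *Cspg4* spread over the oligodendrocyte lineage, the pericyte or fibroblast cluster and macrophages. Each is the 250 bases before the RefSeq start on GRCm38.p6, 5' to 3' on the gene's strand. Capitals mark a match, on either strand, to 1 of 4 searched motifs, ACAAAG or ACAATG (SOX), GAGGAA (ETS) and TTCNNNGAA (STAT).
*Bcan* chr3:88000357-88000606 (reverse): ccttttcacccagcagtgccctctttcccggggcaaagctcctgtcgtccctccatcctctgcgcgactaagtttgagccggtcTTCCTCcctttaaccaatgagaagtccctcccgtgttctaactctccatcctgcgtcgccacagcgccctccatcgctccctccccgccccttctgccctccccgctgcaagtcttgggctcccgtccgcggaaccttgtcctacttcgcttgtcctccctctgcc
*Cspg4* chr9:56864854-56865103 (forward): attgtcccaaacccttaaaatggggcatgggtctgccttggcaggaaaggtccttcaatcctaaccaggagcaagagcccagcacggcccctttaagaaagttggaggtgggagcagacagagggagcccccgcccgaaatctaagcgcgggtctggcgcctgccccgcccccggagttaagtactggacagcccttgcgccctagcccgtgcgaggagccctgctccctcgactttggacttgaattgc
*Tnr* chr1:159523519-159523768 (forward): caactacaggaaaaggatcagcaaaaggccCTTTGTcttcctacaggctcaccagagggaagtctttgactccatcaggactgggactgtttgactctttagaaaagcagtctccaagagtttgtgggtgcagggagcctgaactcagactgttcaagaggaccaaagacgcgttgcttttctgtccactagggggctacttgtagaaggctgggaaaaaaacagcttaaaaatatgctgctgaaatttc
The *Bcan* window held 1 ETS match and the *Tnr* window 1 SOX match (ACAAAG), both on the opposite strand, and the *Cspg4* window held none. Among 32851 promoters of this length, 23.25% held GAGGAA, 16.46% ACAAAG, 10.69% ACAATG and 7.02% TTCNNNGAA, so these matches are common. GC content was 62.0% for *Bcan*, 60.4% for *Cspg4* and 46.8% for *Tnr*, beside a median of 52.4% over all promoters. RefSeq entries were matched for 7 of the 8 members.

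Over all libraries, the 7 members other than *Bcan* had their highest level in the oligodendrocyte lineage cluster, with an interval clear of the next cluster, although that of *Tnc* rested on few cells. *Bcan* alone was highest in astrocytes. The second cluster differed from gene to gene, namely astrocytes for *Ncan*, *Ptprz1* and *Cspg5*, the pericyte or fibroblast cluster for *Vcan*, *Cspg4* and *Tnc*, and no cluster above counting noise for *Tnr*. Levels are compared across clusters within 1 gene and not between genes.

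**Figure D1:**
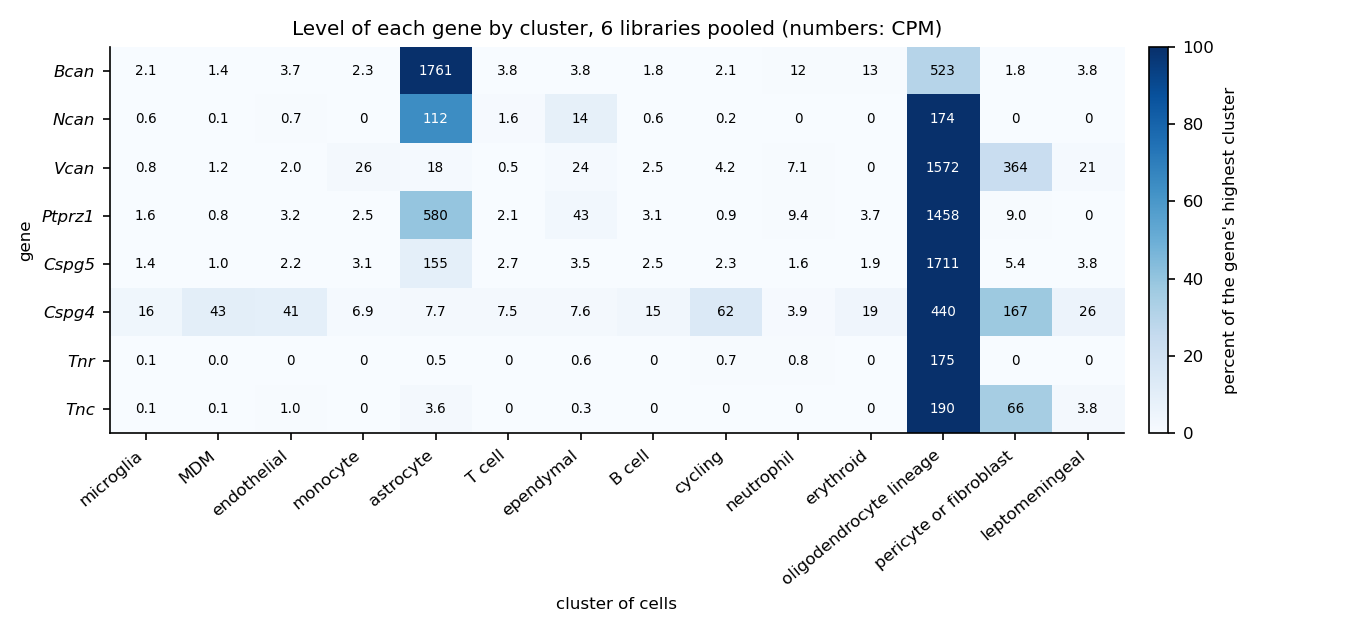
Level of the 8 genes (rows) in the 14 clusters (columns), pooled over the 6 libraries. Printed numbers are CPM and color is the percent of the gene's highest cluster. *Bcan* peaked in astrocytes at 1761 CPM, and the other 7 genes peaked in the oligodendrocyte lineage cluster.

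*Bcan* encodes brevican, a lectican of adult neural tissue that is a component of perineuronal nets. Its 4497 UMIs lay mostly in astrocytes (3909 UMIs, 1761 CPM, 1706 to 1817) and next in the oligodendrocyte lineage (416 UMIs, 523 CPM, 474 to 576). Every other cluster was at 13.0 CPM or lower, and the intervals of these 12 clusters overlapped from each to the next. In astrocytes the level was 2019 CPM in sham, 593 at 7 dpi and 949 at 28 dpi on vehicle, and 2422, 1381 and 1775 CPM on PLX5622. Both 7 dpi libraries were the lowest of their diet, both sham libraries the highest, and each PLX5622 library stood above the vehicle library of the same time.

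*Ptprz1* encodes a receptor phosphatase that binds tenascins and contactin-1 and has pleiotrophin as a ligand. It was highest in the oligodendrocyte lineage (1160 UMIs, 1458 CPM, 1376 to 1545), with astrocytes second (1288 UMIs, 580 CPM, 549 to 613) and then ependymal cells (135 UMIs, 42.5 CPM, 35.7 to 50.3). Astrocyte levels were 750, 250 and 290 CPM in sham, 7 and 28 dpi on vehicle and 713, 400 and 508 CPM on PLX5622, so that sham was highest on each diet. Ependymal levels stayed between 27.8 and 55.8 CPM in the 6 libraries.

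*Cspg5* and *Ncan* were the other members measured in astrocytes at more than trace levels. *Cspg5*, a transmembrane proteoglycan with an EGF-like domain, reached 1711 CPM in the oligodendrocyte lineage (1361 UMIs) and 155 CPM in astrocytes (344 UMIs). Its astrocyte level was 176, 76.2 and 91.8 CPM on vehicle (sham, 7 and 28 dpi) and 177, 181 and 211 CPM on PLX5622. The lower values were thus the 2 injured vehicle libraries, and the 7 dpi value rested on 14 UMIs.

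*Ncan*, a lectican that is made chiefly during development and again after injury, reached 174 CPM (146 to 205) in the oligodendrocyte lineage, 112 CPM (98.2 to 127) in astrocytes and 14.5 CPM (10.6 to 19.3) in ependymal cells. In astrocytes it was 105, 92.5 and 62.8 CPM on vehicle and 137, 276 and 92.4 CPM on PLX5622. The highest of these 6 values, at 7 dpi on PLX5622, rested on 29 UMIs, of which 16 came from 1 cell.

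After contusion on vehicle chow, astrocyte levels of *Bcan*, *Ptprz1* and *Cspg5* were lower than in sham, and those of *Bcan* were lower at 7 than at 28 dpi. At 7 dpi, the log2 ratio to sham was -1.77 (-2.06 to -1.49) for *Bcan*, -1.58 (-2.05 to -1.15) for *Ptprz1* and -1.21 (-2.11 to -0.41) for *Cspg5*. For *Ncan* it was -0.18 (-1.03 to 0.58), an interval that includes 0. Of the 4 members with 50 or more UMIs over the pair of libraries, 3 were lower by 2-fold or more, beside 29.3% of the 3232 genes measured there, and the median of all genes was -0.41.

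At 28 dpi on vehicle, the log2 ratio to sham in astrocytes was -1.09 (-1.25 to -0.93) for *Bcan*, -1.37 (-1.67 to -1.09) for *Ptprz1*, -0.94 (-1.50 to -0.41) for *Cspg5* and -0.74 (-1.44 to -0.09) for *Ncan*. All 4 were below 0, and 2 of 4 were lower by 2-fold or more, beside 16.9% of all genes, whose median was -0.31. With edgeR's trimmed mean of M-values (TMM) scaling or DESeq2 size factors 1 of 4 was, since *Bcan* then stood at -0.85 and -0.93. Between 7 and 28 dpi, *Bcan* was higher at 28 dpi by 0.68 on the log2 scale (0.37 to 1.00), while the intervals of *Ptprz1* (0.21, -0.29 to 0.73) and *Cspg5* (0.27, -0.65 to 1.27) included 0.

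On PLX5622 chow, the same comparisons gave smaller ratios for *Bcan* and *Ptprz1*. At 7 dpi against sham the log2 ratio was -0.81 (-1.07 to -0.56) for *Bcan*, -0.83 (-1.33 to -0.38) for *Ptprz1*, 0.03 for *Cspg5* and 1.02 (0.35 to 1.65) for *Ncan*, which depended on the single cell named above. At 28 dpi it was -0.45 (-0.64 to -0.26) for *Bcan*, -0.49 (-0.86 to -0.14) for *Ptprz1*, 0.25 for *Cspg5* and -0.56 for *Ncan*. None of the 4 members was lower by 2-fold or more at either time, beside 11.4% of all genes at 7 dpi and 6.63% at 28 dpi. At 7 dpi this count was 1 with TMM scaling and 2 with DESeq2 size factors.

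PLX5622 was also set against vehicle at each time. In sham astrocytes, *Bcan* differed by a log2 ratio of 0.26 (0.16 to 0.37), *Ncan* by 0.38, *Cspg5* by 0.01 and *Ptprz1* by -0.07, and 0 of 4 members were past 2-fold in either direction, beside 2.39% of all genes. At 7 dpi *Bcan* was higher on PLX5622 by 1.22 (0.85 to 1.59) and *Ptprz1* by 0.68. There 1 of 2 measured members was higher by 2-fold or more, beside 18.1% of all genes, whose median was 0.19. At 28 dpi *Cspg5* was higher by 1.20 (0.48 to 1.92), *Bcan* by 0.90 (0.67 to 1.13) and *Ptprz1* by 0.81, so that 1 of 3 members was past 2-fold, beside 19.4% of all genes. That count was 0 with either of the other scalings, and the median of all genes was 0.26.

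Myeloid transcripts in the astrocyte cluster were higher than in sham where *Bcan* was lower, on each diet. The 12 genes of the myeloid list summed to 1831 CPM in sham vehicle astrocytes, 22840 at 7 dpi and 21685 at 28 dpi, against 118, 2228 and 983 CPM on PLX5622. All 12 were detected in each library except sham PLX5622, which had 9. The 7 astrocyte markers summed to 34563, 20342 and 21722 CPM on vehicle and 37402, 35013 and 43438 CPM on PLX5622, and their median log2 ratio to sham was -0.99 and -0.76 at 7 and 28 dpi on vehicle.

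Among astrocytes with fewer than 3 UMIs of the myeloid list, *Bcan* still stood below sham on vehicle but by less. The 7 dpi log2 ratio was -0.80 (-1.25 to -0.38) and the 28 dpi ratio -0.30 (-0.51 to -0.10). *Ptprz1* gave -0.84 (-1.63 to -0.15) and -0.46 (-0.83 to -0.11), *Cspg5* -1.17 from 3 UMIs at 7 dpi and -0.69 (-1.60 to 0.11) at 28 dpi, and *Ncan* -0.13 and 0.22. These cells numbered 295, 28 and 123 on vehicle and 199, 34 and 103 on PLX5622. On PLX5622 the *Bcan* ratios were -0.66 and -0.43, close to those of all cells, and PLX5622 against vehicle gave 0.37 (-0.11 to 0.88) at 7 dpi and 0.11 (-0.15 to 0.38) at 28 dpi. Hence the difference between diets in *Bcan* was not detectable after injury among these cells, while in sham *Bcan* was higher on PLX5622 by 0.24 (0.13 to 0.34) and the lower level after injury was present on both diets. *Cspg5* was higher on PLX5622 than on vehicle at 28 dpi by 1.02 (0.07 to 2.04), from 31 and 14 UMIs. For *Ptprz1*, PLX5622 against vehicle gave -0.07 (-0.93 to 0.84) at 7 dpi and -0.09 (-0.57 to 0.39) at 28 dpi. The *Ptprz1* difference between diets after injury was thus not detectable among these cells. The 7 dpi interval also includes the ratio of all cells, so it cannot show whether that ratio changed.

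**Figure D2:**
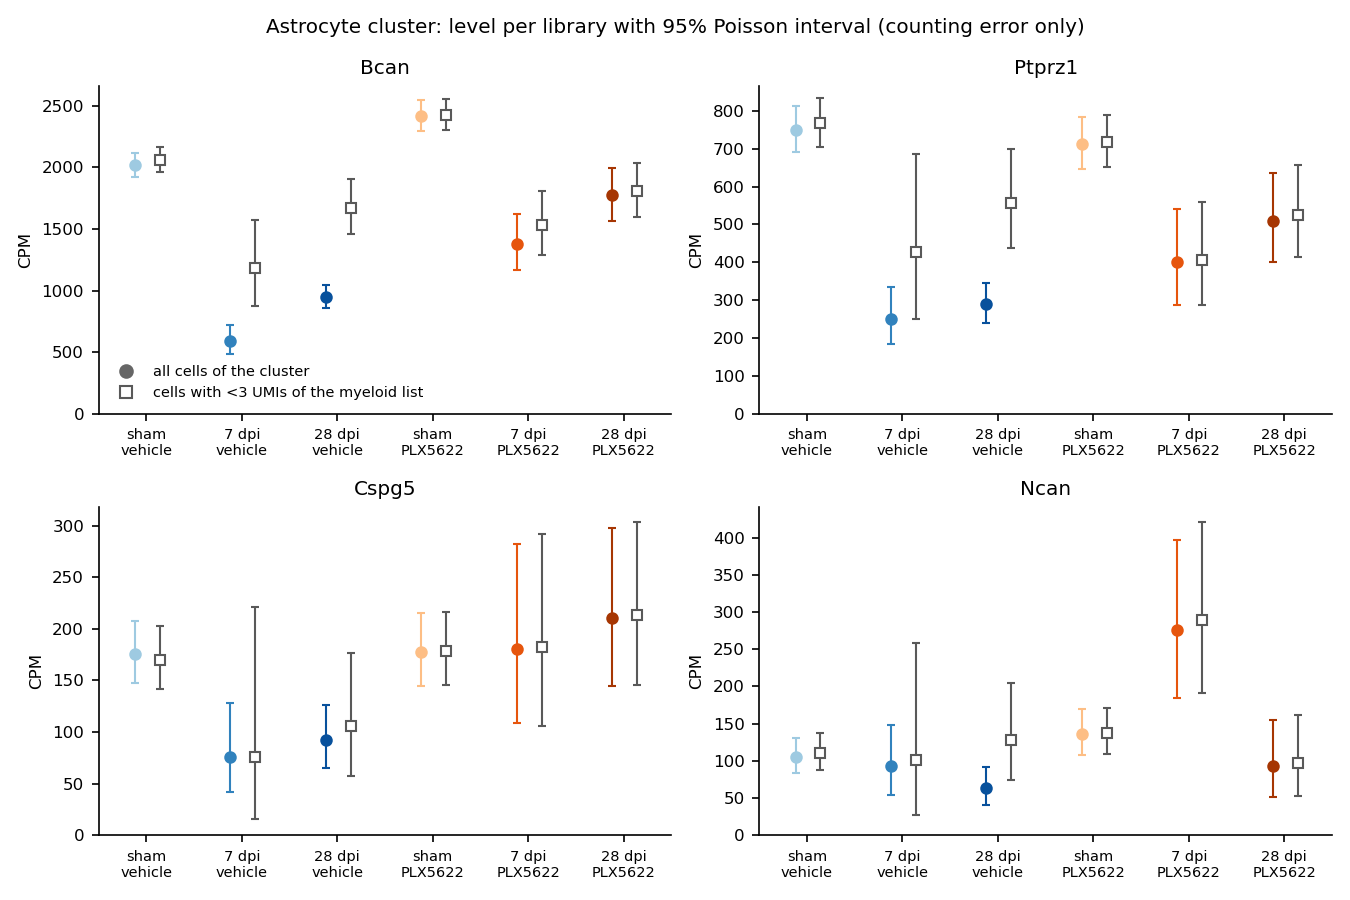
Astrocyte cluster levels (CPM, axis from 0) of *Bcan*, *Ptprz1*, *Cspg5* and *Ncan* in the 6 libraries, with 95% Poisson intervals. Filled circles are all cells, open squares are cells with fewer than 3 UMIs of the myeloid list. *Bcan* at 7 dpi on vehicle was 593 CPM over all cells and 1185 CPM among the cells with few myeloid UMIs.

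The summed level of the 8 genes of the reactive astrocyte list moved the other way. In astrocytes it was 265, 2378 and 758 CPM on vehicle and 365, 8608 and 4110 CPM on PLX5622. At 7 dpi, 11.9% of all genes were higher than sham by 2-fold or more on vehicle and 8.76% on PLX5622. The restriction to cells with few myeloid UMIs was not applied to this list. *Gfap*, the intermediate filament of reactive astrocytes, was 119, 1578 and 336 CPM on vehicle and 237, 4799 and 2639 CPM on PLX5622 in the same cluster, and *Vim*, vimentin, was higher than sham by a log2 ratio of 3.45 at 7 dpi on vehicle and 7.74 on PLX5622. In the libraries where *Gfap* was higher than sham, *Bcan* and *Ptprz1* were lower, on both diets. *Tnc*, a tenascin that reactive astrocytes are known to make, was at 8 UMIs in all 974 astrocytes, and *Tnr* at 1 UMI. Of the *Tnc* UMIs, 6 came from 2 cells at 7 dpi and 2 from 2 cells at 28 dpi, both on PLX5622.

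The oligodendrocyte lineage cluster held only 255 cells, 22, 107 and 55 on vehicle and 4, 28 and 39 on PLX5622, yet it gave 69.8% of all *Vcan* UMIs, 74.4% of *Cspg5* and 93.3% (88.0 to 96.7%) of *Tnr*. The 4 sham PLX5622 cells also carried astrocyte markers at 30743 CPM, beside 1196 to 5357 CPM in the other libraries, and that library is left out of the ratios. *Vcan*, the largest lectican and a major product of OPCs, was 1987, 1483 and 1732 CPM on vehicle and 1334 and 1757 CPM at 7 and 28 dpi on PLX5622. *Ptprz1* was 1948, 1324 and 1523 CPM on vehicle and 1103 and 1938 CPM on PLX5622. In both genes the 7 dpi library was the lowest of the 3 on vehicle, and on PLX5622 it was below 28 dpi.

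*Cspg5* was lower after injury than in sham on vehicle in this cluster. Its level was 3140 CPM in sham, 1156 at 7 dpi and 1570 at 28 dpi on vehicle, and 1491 and 2710 CPM at 7 and 28 dpi on PLX5622. *Bcan* was 923, 445 and 466 CPM on vehicle and 340 and 649 CPM on PLX5622. *Ncan* lay between 129 and 230 CPM in the 5 libraries, with overlapping intervals.

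The NG2 gene *Cspg4* was 346, 409 and 305 CPM on vehicle and 449 and 723 CPM on PLX5622 in this cluster, highest in the last library. *Tnr*, a tenascin of myelinating glia and perineuronal nets, was 154, 192 and 247 CPM on vehicle and 81.7 and 214 CPM on PLX5622, from 12 to 63 UMIs per library. It was at 0 in the 4 sham PLX5622 cells, which allows up to 190 CPM at a floor of 3 UMIs.

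**Figure D3:**
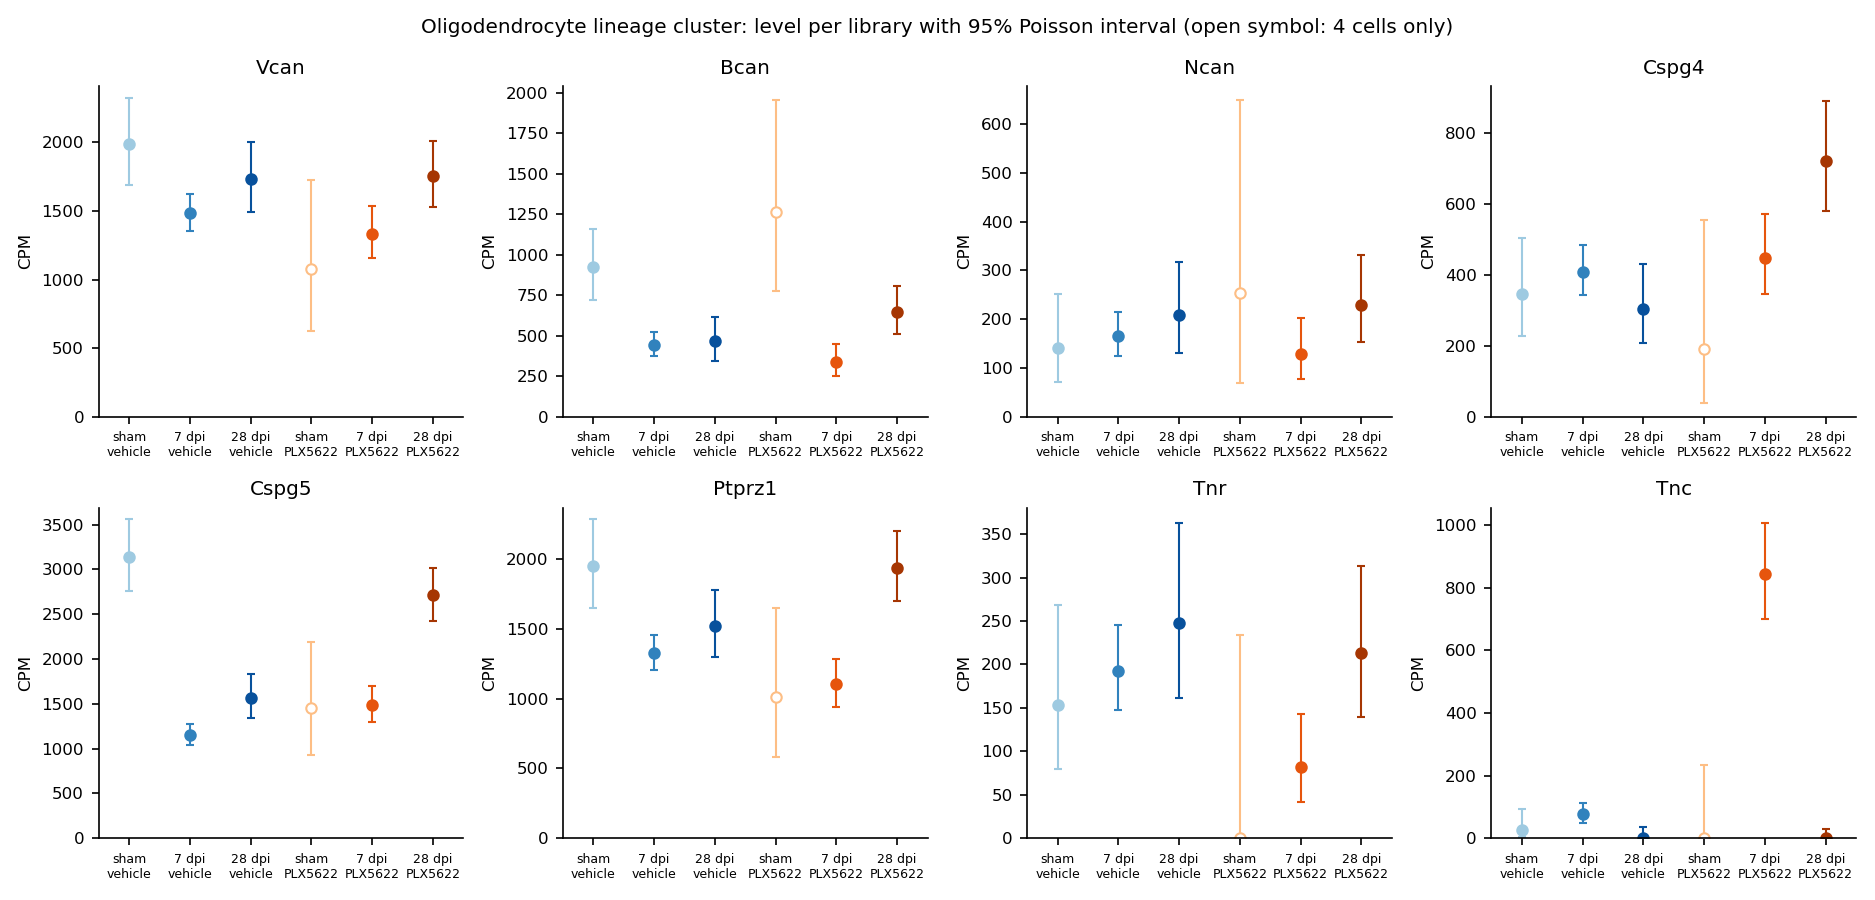
Oligodendrocyte lineage cluster levels (CPM, axis from 0) of the 8 genes in the 6 libraries, with 95% Poisson intervals; open symbols mark the sham PLX5622 library with 4 cells. *Cspg5* was highest in sham vehicle at 3140 CPM, and the *Tnc* value of 844 CPM at 7 dpi on PLX5622 came mostly from 1 cell.

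At 7 dpi against sham on vehicle, the log2 ratio in this cluster was -1.44 (-1.68 to -1.20) for *Cspg5*, -1.05 (-1.47 to -0.62) for *Bcan*, -0.56 for *Ptprz1* and -0.42 (-0.69 to -0.15) for *Vcan*, while *Ncan* (0.22), *Cspg4* (0.24) and *Tnr* (0.32) had intervals that included 0. Thus 2 of 7 members were lower by 2-fold or more, beside 7.71% of all genes, whose median was 0.12. The count was 1 with TMM scaling and 0 with DESeq2 size factors, where *Cspg5* stood at -1.0. At 28 dpi *Cspg5* was at -1.0 (-1.29 to -0.71), *Bcan* at -0.98, *Ptprz1* at -0.36, *Vcan* at -0.20 and *Cspg4* at -0.18, none of these 5 past 2-fold, beside 6.77% of all genes. The sham vehicle cells of this cluster carried astrocyte markers at 5357 CPM, the injured vehicle cells at 1196 and 1694 CPM, and myeloid list transcripts went from 308 to 7142 and 7794 CPM. Among cells with fewer than 3 myeloid list UMIs the *Cspg5* ratio at 7 dpi was -1.06 and that of *Bcan* -0.89.

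Diet was compared in this cluster at 7 and 28 dpi. At 7 dpi *Tnr* was lower on PLX5622 by a log2 ratio of -1.23 (-2.26 to -0.33), from 12 against 63 UMIs, and apart from *Tnc* the other members lay between -0.39 and 0.37. At 28 dpi *Cspg4* was higher on PLX5622 by 1.25 (0.65 to 1.88), *Cspg5* by 0.79 (0.51 to 1.07), *Bcan* by 0.48 and *Ptprz1* by 0.35, with *Vcan* at 0.02. Hence 1 of 7 members was past 2-fold at 28 dpi, beside 3.31% of all genes. Without the cells carrying 3 or more myeloid list UMIs, *Cspg4* was at 0.62 (-0.11 to 1.43) and *Cspg5* at 0.44 (0.08 to 0.81). *Bcan* (0.12), *Ptprz1* (-0.15), *Vcan* (-0.37), *Ncan* (-0.69) and *Tnr* (-0.49) had intervals that included 0. At 7 dpi among such cells, *Bcan* (-0.65), *Vcan* (-0.44), *Ptprz1* (-0.44) and *Tnr* (-1.19, from 12 against 24 UMIs) were lower on PLX5622, with intervals below 0. There *Ncan* (-0.74), *Cspg4* (-0.25) and *Cspg5* (-0.002) had intervals that included 0. Within PLX5622, *Bcan* (0.93), *Cspg5* (0.86), *Ptprz1* (0.81), *Cspg4* (0.69) and *Vcan* (0.40) were all higher at 28 than at 7 dpi, each with an interval above 0, where the median of all genes was -0.36. The 7 dpi PLX5622 cells of this cluster stood apart in the 8 genes of the reactive astrocyte list, summed to 5255 CPM beside 246 at 28 dpi on PLX5622 and 1236 at 7 dpi on vehicle, and the part of these transcripts in the ratios was not tested.

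The cluster was also split by the OPC list (*Pdgfra*, *Cacng4*, *C1ql1*, *Lhfpl3* and *Neu4*), which contains no member. In the 220 cells with at least 2 UMIs of the list, *Cspg5* was 1887 CPM, *Ptprz1* 1600, *Vcan* 1679 and *Cspg4* 486, and in the other 35 cells 236, 271, 672 and 59.0 CPM. *Cspg5*, *Ptprz1* and *Cspg4* were higher in the cells with the list in each of the 6 libraries, while *Vcan* at 7 dpi on vehicle was 1443 CPM against 1996 in the 11 other cells of that library. The other cells numbered only 2 to 11 per library, and several of these intervals overlapped. For example, *Cspg4* in sham vehicle was 364 CPM (238 to 533) against 152 (3.84 to 845). *Ncan* was 186 against 70.8 CPM and *Bcan* 546 against 330 over all libraries, but *Bcan* in sham PLX5622 was 535 against 1927 CPM, from 2 cells each. *Tnr* (184 against 94.4 CPM) had overlapping intervals, and its 8 UMIs outside the cells with the list all came from 7 dpi on vehicle, where it was 181 against 340 CPM. *Tnc* was 180 against 271 CPM. Close to the division, 9 cells had 1 UMI of the list and 25 had 2, so it is a range and not a cell type. Genes of mature oligodendrocytes were nearly absent from the cluster, at 0 to 73.2 CPM summed over the list, so the values describe the progenitor end of the lineage.

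*Tnc* had 210 UMIs in all and rested on single cells. One oligodendrocyte lineage cell at 7 dpi on PLX5622 held 99 of them (47.1%), 1 pericyte or fibroblast cell at 7 dpi on vehicle held 37, and 1 oligodendrocyte lineage cell at 7 dpi on vehicle held 22. The cell with 99 *Tnc* UMIs also had 53 UMIs of the OPC list, 87 of *Vim*, 24 of *Gfap* and 14 of *Cd44*, and none of *Col1a1* or *Aqp4*. The cell with 37 had 80 UMIs of *Col1a1* and 73 of *Vim*. These 3 cells were all taken at 7 dpi, and no statement on condition is made for *Tnc* from so few cells.

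Outside the neural clusters, *Vcan* and *Cspg4* were the members with levels of their own. *Vcan* was 364 CPM (315 to 417) in the pericyte or fibroblast cluster and 26.0 CPM (21.2 to 31.5) in monocytes, cells in which versican is also made. By library, the pericyte or fibroblast level was 579 CPM in sham vehicle, 48.0 at 7 dpi and 372 at 28 dpi, and 65.7, 379 and 47.1 CPM on PLX5622. These values had no common order by time on both diets and rested on 10 to 66 cells each, with 40 and 34 of the 134 sham vehicle UMIs in 2 cells. In monocytes *Vcan* was 46.1, 22.0 and 36.1 CPM on vehicle, and the log2 ratio of -1.06 at 7 dpi against sham became 0.01 without the cell with most *Vcan* UMIs of each library.

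*Cspg4* was the only member with most of its UMIs in macrophages. Monocyte-derived macrophages (MDMs) held 1651 of 2957 UMIs (55.8%, 54.0 to 57.6%), the oligodendrocyte lineage 11.8%, microglia 9.67%, the cycling cluster 8.96% and endothelial cells 5.55%. Per transcript the order was different, with 440 CPM (395 to 489) in the oligodendrocyte lineage, 167 (134 to 204) in the pericyte or fibroblast cluster, 61.9 in cycling cells, 43.2 (41.1 to 45.3) in MDMs, 41.0 (35.0 to 47.8) in endothelial cells and 16.1 in microglia. The order of cycling cells, MDMs and endothelial cells was not the same in every library. At 28 dpi on vehicle they were at 64.2, 64.6 and 74.3 CPM with overlapping intervals, and their medians over libraries with at least 15 cells were 41.9, 31.2 and 41.4 CPM. MDMs were 6791 of the 21016 cells, so a low level per cell gave a large share.

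In MDMs the *Cspg4* level was 19.0 CPM in sham vehicle (27 UMIs), 31.2 at 7 dpi (621 UMIs) and 64.6 at 28 dpi (896 UMIs), and on PLX5622 it was 11.5 at 7 dpi (20 UMIs) and 66.8 at 28 dpi (86 UMIs). Sham PLX5622 had 9 MDMs with 1 UMI and gave no ratio. Both 28 dpi libraries were thus close to each other and above the others. The log2 ratio of 28 to 7 dpi was 1.05 (0.90 to 1.20) on vehicle, where 4.12% of all genes were higher by 2-fold or more, and 2.54 (1.83 to 3.33) on PLX5622, where 2.58% were. Against sham on vehicle it was 1.76 (1.21 to 2.37) at 28 dpi, beside 1.93% of all genes, and 0.71 (0.16 to 1.33) at 7 dpi. With each cell thinned to 1000 UMIs the 28 dpi ratio to sham was 3.51. A single cell of the 175 thinned sham MDMs then had a *Cspg4* UMI, so the size of this value is poorly set. *Cspg4* was the 1 member with at least 50 UMIs in each of these comparisons.

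At 7 dpi, PLX5622 against vehicle gave a log2 ratio for *Cspg4* in MDMs of -1.45 (-2.17 to -0.81), where 3.42% of all genes were lower by 2-fold or more. The 28 dpi ratio was 0.05 (-0.29 to 0.37). The lower value at 7 dpi on PLX5622 rested on 20 UMIs in 100 cells. Among MDMs thinned to 1000 UMIs each, the share with a *Cspg4* UMI was 0.571, 2.76 and 6.05% on vehicle (sham, 7 and 28 dpi) and 1.01 and 6.67% on PLX5622 at 7 and 28 dpi. The share in sham vehicle came from a single cell of 175, and that at 7 dpi on PLX5622 from a single cell of 99. Over all MDMs the share was 4.36% (16.5% without thinning), beside 0.163% of T cells, 0.458% of B cells and 0.276% of neutrophils, which should lack the gene.

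Transcripts of the OPC list were scarce in the MDMs. The part of transcripts from other cells in their *Cspg4* level was not tested. The 5 OPC list genes summed to at most 4.01 CPM in any library, and *Ptprz1* and *Vcan*, which exceeded *Cspg4* in UMIs in the oligodendrocyte lineage (1160 and 1250 against 350), had 31 and 44 UMIs in MDMs against 1651. In MDMs without any UMI of the OPC list or of the mural genes *Rgs5*, *Pdgfrb* and *Vtn*, *Cspg4* was 19.1, 31.0 and 64.5 CPM on vehicle and 12.2 and 66.5 CPM on PLX5622 at 7 and 28 dpi. This restriction was chosen after the data were seen and left out few cells. On vehicle it kept 2985 of 3023 MDMs at 7 dpi, and 3275 of 3313 MDMs and 3938 of 3974 microglia at 28 dpi. All 11 ratios of *Cspg4* in MDMs and microglia stayed within the interval of all cells. With nearly the same cells they could hardly do otherwise, so no conclusion is drawn from this.

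Microglia showed *Cspg4* after injury at a lower level. It was 0.954 CPM in sham vehicle (2 UMIs), 15.1 at 7 dpi (102 UMIs) and 21.1 at 28 dpi (167 UMIs), and 0, 7.83 and 27.9 CPM on PLX5622 from 0, 3 and 12 UMIs. On vehicle, the 7 dpi log2 ratio to sham was 3.98 (2.10 to 7.05) and the 28 dpi ratio 4.46 (2.59 to 7.52), the latter beside 3.84% of all genes higher by 2-fold or more. The sham value rested on 2 UMIs, so the size of these ratios is poorly set. The cycling cluster was at 0 in sham vehicle (29 cells), 71.1 CPM at 7 dpi and 64.2 CPM at 28 dpi, and its sham cells carried less of the myeloid list (7674 CPM) than its injured cells (35996 and 35255 CPM).

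**Figure D4:**
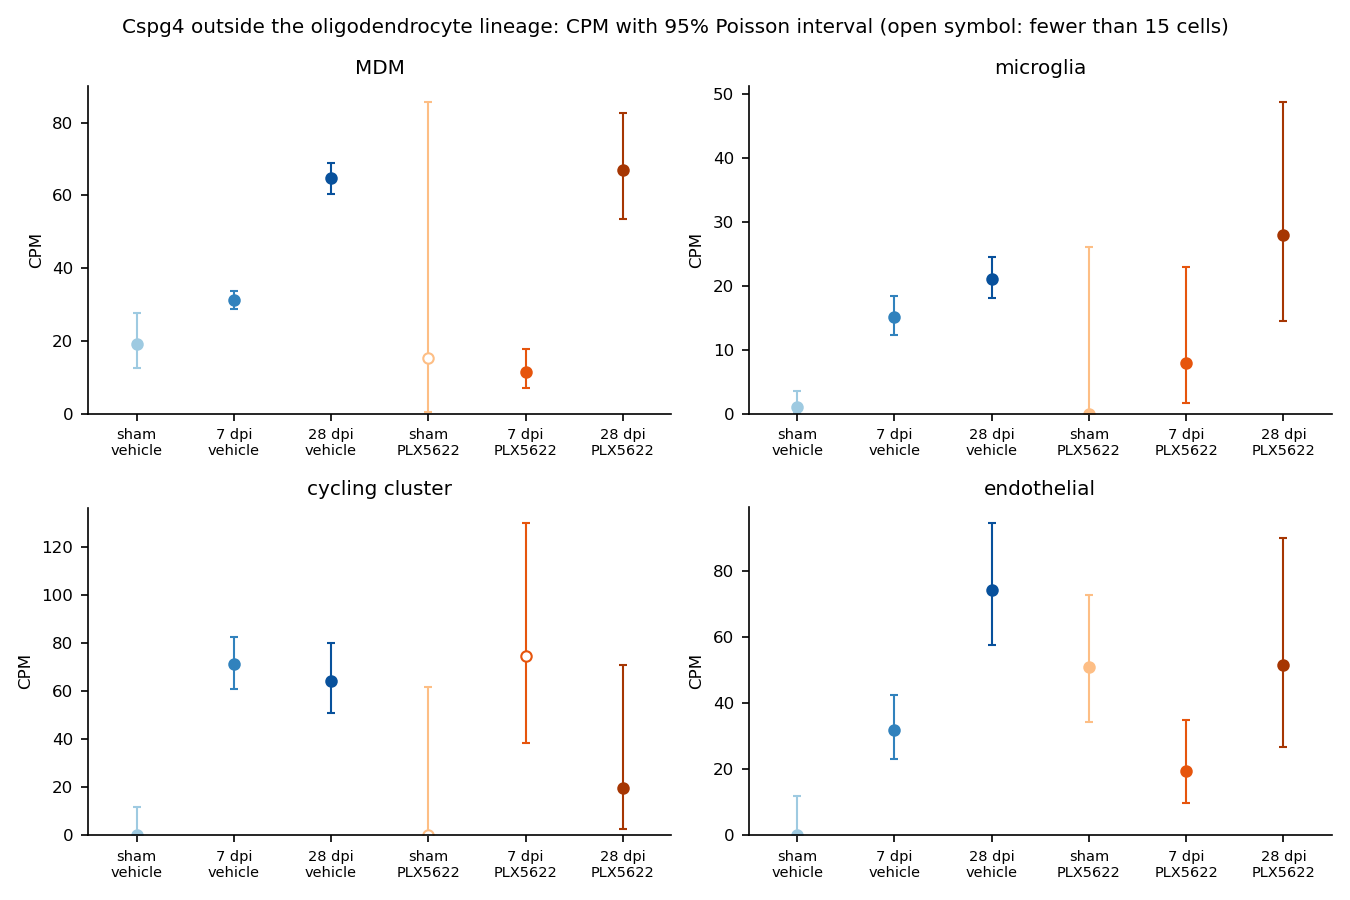
*Cspg4* level (CPM, axis from 0) in MDMs, microglia, the cycling cluster and endothelial cells of the 6 libraries, with 95% Poisson intervals; open symbols mark fewer than 15 cells. In MDMs the 28 dpi libraries stood at 64.6 and 66.8 CPM, above 31.2 and 11.5 CPM at 7 dpi.

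The endothelial cluster held *Cspg4* at 0, 31.7 and 74.3 CPM on vehicle and 51.0, 19.5 and 51.6 CPM on PLX5622. The log2 ratio of 28 to 7 dpi on vehicle was 1.23 (0.66 to 1.81), beside 1.47% of all genes higher by 2-fold or more. Nearly all of it lay in cells that carried at least 2 UMIs of *Rgs5*, *Pdgfrb* and *Vtn*, markers of pericytes. These cells numbered 4, 59 and 98 on vehicle and 16, 13 and 18 on PLX5622 and held 0, 38 and 56 and 30, 11 and 11 *Cspg4* UMIs, while the remaining endothelial cells held 0, 7 and 10 and 0, 0 and 1. Among the cells with mural markers the level was 108 and 188 CPM at 7 and 28 dpi on vehicle. In the pericyte or fibroblast cluster *Cspg4* was 69.2, 312 and 191 CPM on vehicle and 263, 252 and 94.3 CPM on PLX5622.

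The distribution of UMIs over clusters differed between libraries, as did the cells each library contained. Astrocytes held 94.3% of *Bcan* UMIs in sham vehicle, 36.8% at 7 dpi and 78.6% at 28 dpi, and 97.8, 67.8 and 73.3% on PLX5622. At 7 dpi on vehicle the oligodendrocyte lineage held 49.3%, more than astrocytes. MDMs held 33.8, 54.0 and 68.4% of *Cspg4* UMIs on vehicle and 15.3 and 40.8% at 7 and 28 dpi on PLX5622, and in sham PLX5622 endothelial cells held 39.5% and the pericyte or fibroblast cluster 36.8%. These shares depend on the cells in each library, and astrocytes were 310 of 1795 cells in sham vehicle and 69 of 7439 at 7 dpi.

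**Figure D5:**
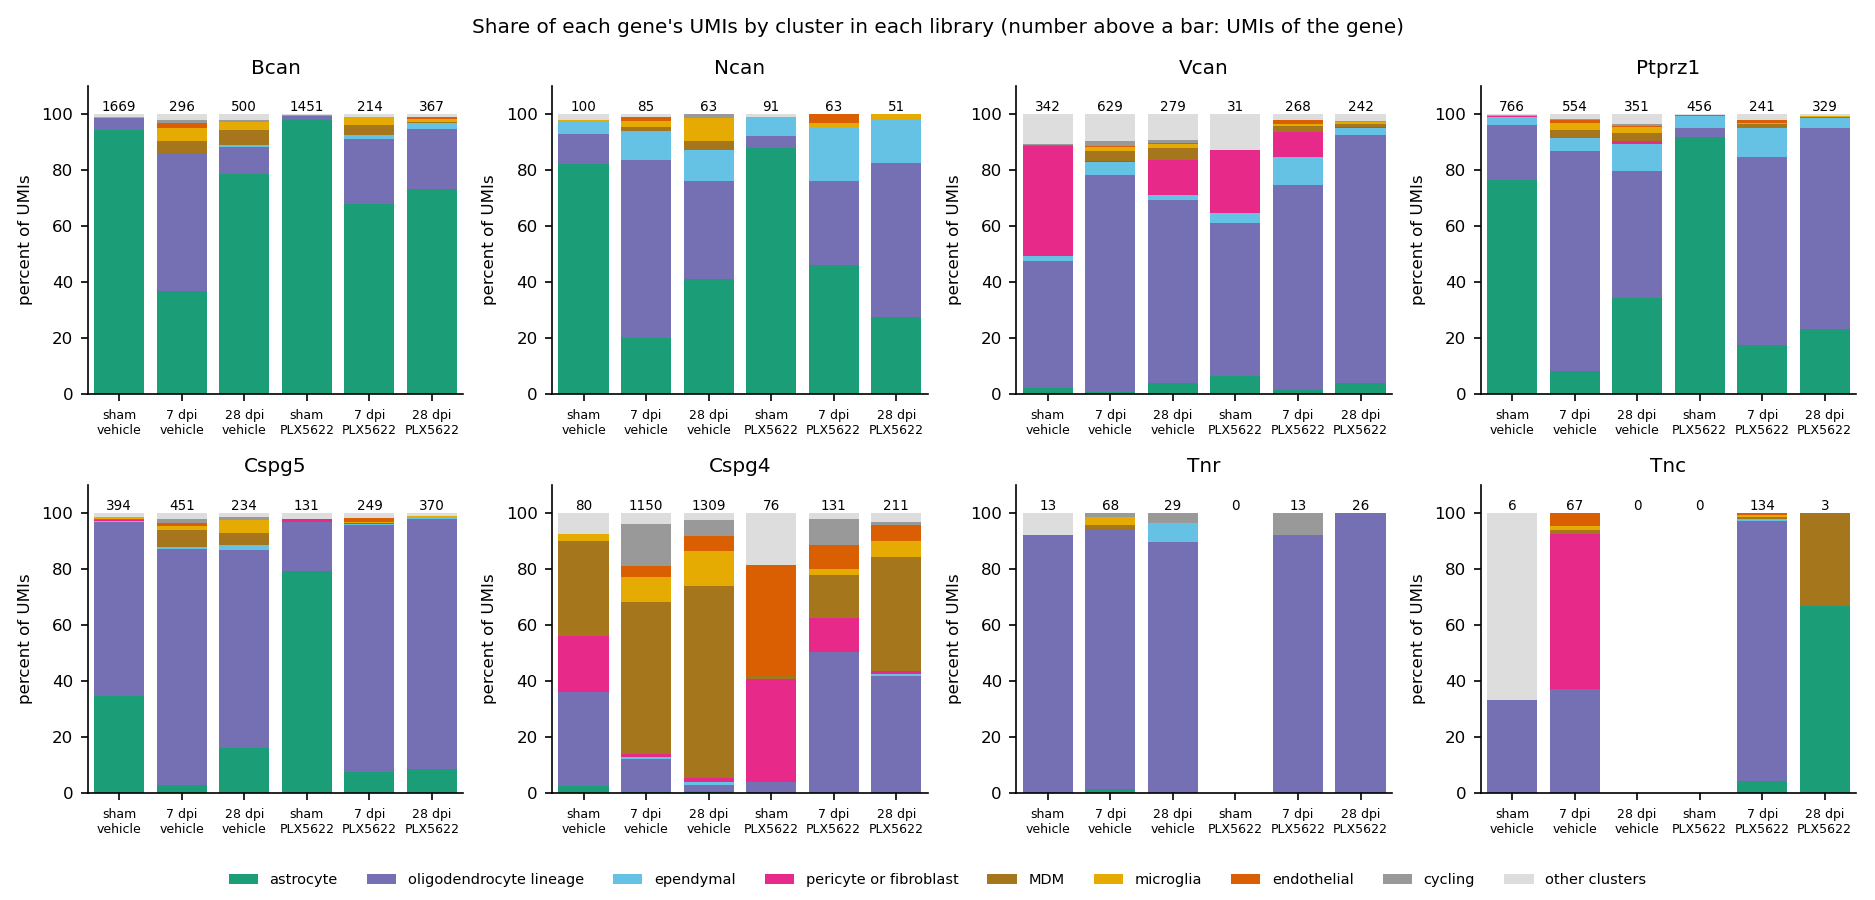
Percent of each gene's UMIs held by each cluster in the 6 libraries (stacked bars, axis from 0), with the gene's UMIs in that library above the bar. Astrocytes held 94.3% of *Bcan* UMIs in sham vehicle and 36.8% at 7 dpi, and MDMs held 68.4% of *Cspg4* UMIs at 28 dpi on vehicle.

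Cells were next compared at equal depth, each thinned to 1000 UMIs. *Bcan* was found in 75.6% of 630 astrocytes, and by library in 84.4, 47.1 and 60.5% on vehicle and 87.4, 79.2 and 76.8% on PLX5622, with 344 shallower cells left out. *Ptprz1* was found in 41.4% of astrocytes, *Cspg5* in 13.0% and *Ncan* in 11.7%. Of 213 oligodendrocyte lineage cells (42 left out), 72.3% had *Vcan*, 70.9% *Cspg5*, 67.6% *Ptprz1*, 39.0% *Bcan*, 35.7% *Cspg4*, 18.8% *Ncan*, 16.9% *Tnr* and 0.939% *Tnc*. T cells, B cells and neutrophils, which should lack most of these genes, ranged from 0 to 1.38%. At least 3 of the 8 genes were found together in 70.0% of oligodendrocyte lineage cells, 10.6% of astrocytes and 0 of 622 ependymal cells, which allows up to 0.482%.

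Genes of the same pathway were followed as lists, of which few members reached 50 UMIs in these clusters. The part of myeloid transcripts in the ratios of these list genes was not tested. Of 20 enzymes that build and sulfate chondroitin chains, 1 was measured in astrocytes at 7 dpi on vehicle and 2 at 28 dpi. *Csgalnact1*, which starts the chondroitin chain, was 174 CPM in sham, 21.8 at 7 dpi (4 UMIs) and 70.0 at 28 dpi on vehicle, log2 ratios of -3.00 (-4.90 to -1.61) and -1.32 (-1.95 to -0.73), and was higher on PLX5622 than on vehicle at 28 dpi by 1.50. The most abundant of the list, *B3gat3*, which completes the linker of the chain, was between 47.5 and 72.6 CPM in astrocytes of the 6 libraries. *Csgalnact1* thus went the way of *Bcan* and *Ptprz1*. In vehicle astrocytes, 29.3% of all genes were lower than sham by 2-fold or more at 7 dpi and 16.9% at 28 dpi. On PLX5622 against vehicle at 28 dpi, 19.4% were higher. *B3gat3* is given as levels without intervals, so no statement on a difference is made for it.

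Of 11 hyaluronan and link proteins and other lecticans, none was measured in astrocytes against sham. *Cd44*, the hyaluronan receptor and the most abundant of them, was higher on PLX5622 than on vehicle in astrocytes at 28 dpi by a log2 ratio of 1.88 and in the oligodendrocyte lineage at 7 dpi by 2.85. Aggrecan (*Acan*) had 11 UMIs, all of those in the table, in the oligodendrocyte lineage, and the link protein gene *Hapln1* was found in astrocytes alone (34 UMIs), both named after their values were seen. Of 11 enzymes that cut the members, *Mmp14*, a membrane-bound matrix metalloproteinase, was lower than sham in vehicle astrocytes by -1.59 and -1.12 at 7 and 28 dpi and higher on PLX5622 than on vehicle at 28 dpi by 1.56. *Arsb*, a lysosomal sulfatase of chondroitin sulfate, was the most abundant of them. It was higher than sham at 28 dpi on vehicle by 1.73 and lower on PLX5622 than on vehicle by -1.01. At 28 dpi in astrocytes, 11.3% of all genes were higher than sham on vehicle by 2-fold or more. On PLX5622 against vehicle, 17.4% were lower. Myeloid list transcripts also stood higher than sham on vehicle and lower on PLX5622 in this cluster, and their part in the *Mmp14* and *Arsb* ratios was not tested. *Adamts1*, a protease that cuts lecticans, was higher on PLX5622 at 7 dpi in the oligodendrocyte lineage by 2.42.

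Among receptors of CSPGs, 2 of 6 were measured in astrocytes at 7 dpi and 3 at 28 dpi on vehicle, and none was past 2-fold from sham, beside 41.2% and 28.2% of all genes past 2-fold in either direction. *Ptprs*, a receptor phosphatase that binds chondroitin sulfate and the most abundant of them, was 138 CPM in sham and 277 at 28 dpi on PLX5622 in astrocytes, a log2 ratio of 1.00 (0.43 to 1.56). At 28 dpi it was higher on PLX5622 than on vehicle by 1.63, and *Ptprd*, its close relative, by 1.19. In the oligodendrocyte lineage *Ptprs* was between 252 and 575 CPM in the 5 libraries with at least 15 cells.

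Of 9 tenascin receptors, 4 were measured in vehicle astrocytes. *Itgb1*, the shared integrin beta subunit and the most abundant, was higher than sham by 1.96 (1.25 to 2.67) and 1.46 at 7 and 28 dpi, while *Itga7* (-1.82 and -1.19) and the EGF receptor gene *Egfr* (-1.12 and -1.61) were lower. Beside these, 41.2% of all genes at 7 dpi and 28.2% at 28 dpi were past 2-fold in either direction. *Itgb1* was at 388 CPM in endothelial cells, and the myeloid list moved with it in astrocytes. The part of myeloid transcripts in the ratios of *Itgb1*, *Itga7* and *Egfr* was not tested. In the oligodendrocyte lineage at 7 dpi on vehicle *Itgb1* was higher by 1.25, and on PLX5622 *Itga9* was higher at 28 than at 7 dpi by 1.08. *Egfr* was lower on PLX5622 than on vehicle in sham astrocytes by -1.20.

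Ligands and partners of *Ptprz1* were the best measured list, with 6 of 8 in vehicle astrocytes, 3 lower by 2-fold or more than sham at 7 dpi, beside 29.3% of all genes, and 1 at 28 dpi, beside 16.9%. *Nfasc*, a cell adhesion gene, was at -3.29 and -1.50, and *Mdk*, the ligand midkine, at -1.07 and *Ncam1* at -1.03 at 7 dpi. *Ptn*, the ligand pleiotrophin and the most abundant of the list, was 199, 234 and 167 CPM on vehicle and 196, 552 and 165 CPM on PLX5622, so that only 7 dpi on PLX5622 stood apart, at 1.49 (1.01 to 1.96) above sham. In the oligodendrocyte lineage *Cntn1*, contactin-1, was lower than sham at 7 dpi on vehicle by -1.14 and *Nfasc* by -1.04. At 7 dpi on PLX5622 against vehicle, 4 of 5 measured partners were higher by 2-fold or more in astrocytes, namely *Mdk* (1.60), *Ptn* (1.24), *Nrcam* (1.19) and *Ncam1* (1.08), beside 18.1% of all genes, whose median was 0.19. Of 7 further tenascins, testicans and related proteoglycans, *Gpc5*, a glypican, was lower than sham in vehicle astrocytes by -1.37 and -1.51, and *Sdc3*, a syndecan and the most abundant, lay between 261 and 390 CPM in astrocytes.

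The genes with the most similar pattern were found by Pearson's r of log2(CPM + 10) over 70 sums of 1 cluster in 1 library, among 11685 genes. These points share libraries, depth and cell types, so r is a description. *Bcan* was most like *Omg* (0.97), *Nrcam* (0.97) and *Mdga2* (0.95), and *Tnr* like *3110035E14Rik* (0.99), *Gpr17* (0.99) and *Neu4* (0.98). *Cspg5* was most like *Olig2* (0.98), *Gria4* and *Lhfpl3*, *Vcan* like *Pdgfra* (0.90), *Nlgn2* and *Tubb4a*, *Ncan* like *Pcdh10* (0.97) and *Pou3f3os*, and *Ptprz1* like *Pcdh10* (0.96), *Lrrn1* and *Dpp6*. *Cspg4* had lower values, with *Sept8* (0.82), *Pdgfra* (0.81) and *Sema5a* (0.80), and *Tnc* the lowest, with *Col16a1* (0.67), *Serpina3n* and *C1qtnf6*. Between members, r was highest for *Ncan* and *Ptprz1* (0.95) and lowest for *Bcan* and *Cspg4* (0.24).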

How the data were processed

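Single-cell RNA-seq was measured in 6 libraries, 1 for each of sham, 7 dpi and 28 dpi on vehicle or PLX5622 chow. The deposited count table gives UMIs per gene and cell, and the authors made it by aligning reads to the mouse genome (GRCm38, mm10) with Cell Ranger and filtering and clustering cells in Seurat. Cord pieces were dissociated, and myelin and dead cells were removed before loading, which decides which cells a library holds. The table holds 21016 cells and 16003 genes, and the labels give 1916, 7439, 9848, 594, 533 and 940 cells for the libraries (sham, 7 and 28 dpi on vehicle, then on PLX5622), beside 1795, 7439, 9846, 492, 504 and 940 in the table. The deposited cluster numbers carry no names. Bulk RNA-seq samples of the series were not analysed here.

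Raw counts were summed per cluster and library and divided by the summed total to give CPM, with exact Poisson 95% intervals (scipy 1.17.1). Log2 ratios had exact conditional binomial intervals, with a floor of 3 counts where a library was at 0. They are given where both libraries held at least 15 cells and the gene at least 50 UMIs. Ratios among cells with fewer than 3 myeloid list UMIs kept the minimum of 15 cells but had no minimum of UMIs. Shares had Clopper-Pearson intervals. PCR copies were removed by UMI, intervals do not cover variation between animals, and with 1 library per condition on each diet no test was run (a model with additive terms for condition and diet was not fitted). Ratios were checked on simulated data. The 8 genes, the gene lists and the comparisons were chosen with earlier results of these data known. The text names the 8 members, the 3 genes most like each (for *Ncan*, 1 of them is not reported here), and list genes past 2-fold in astrocytes or the oligodendrocyte lineage with the most abundant gene of each list. Scrublet (scanpy 1.11.5) called 9, 335, 1, 2, 8 and 5 doublets, and 1 of 9846 at 28 dpi on vehicle means that it did not work there, so doublets were left in. edgeR 4.0.16 and DESeq2 1.42.0 were used for scaling factors only. Promoters came from RefSeq (GRCm38.p6).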

Additional observations from a re-analysis of the deposited data

How the results depend on the processing

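No paired analysis was possible because each condition is 1 library, and for the same reason no replicate could be left out. Over 775 values of 100 member ratios under the other settings, 685 stayed within the counting interval and 89 moved out of it. Among ratios past 2-fold, 1 value changed sign, *Vcan* in monocytes at 7 dpi against sham on vehicle. It was 0.012 without the cell with most UMIs of each library. Sign changes of smaller ratios were not counted, and some occurred. *Ncan* in astrocytes at 28 dpi against sham on vehicle was below 0 over all cells and 0.22 in cells with few myeloid UMIs. Cells with fewer than 3 myeloid list UMIs and cells thinned to 1000 UMIs moved 22 ratios each, equal weight per cell 19, DESeq2 size factors 11 and edgeR TMM factors 8. For *Cspg4* in the cycling cluster, at 0 in sham, thinning gave no value.

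In astrocytes against sham on vehicle, *Bcan* at 7 dpi was -0.80 in cells with few myeloid UMIs, -1.30 thinned and -1.25 with equal weight per cell, and at 28 dpi -0.85 with TMM, -0.93 with DESeq2 factors, -1.25 in cells with at least 500 genes, -0.30 in cells with few myeloid UMIs and -0.68 with equal weight. *Ptprz1* was -0.84 at 7 dpi and -0.46 at 28 dpi in cells with few myeloid UMIs, and -0.94 at 28 dpi with equal weight. On PLX5622 at 28 dpi *Bcan* was -0.68 with TMM, -0.72 with DESeq2 factors and -0.68 with equal weight. In the oligodendrocyte lineage *Cspg5* at 7 dpi was -1.07 with TMM, -1.0 with DESeq2 factors, -1.06 in cells with few myeloid UMIs, -0.95 thinned and -0.75 with equal weight. *Cspg4* in MDMs at 28 dpi against sham was 3.51 thinned, with *Cspg4* found in a single thinned sham cell. The cause of these shifts was not tested.

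Counts of members lower past 2-fold in vehicle astrocytes against sham at 7 dpi went from 3 to 1 in cells with few myeloid UMIs, and at 28 dpi from 2 to 1 with TMM or DESeq2 factors, to 0 in cells with few myeloid UMIs or with equal weight and to 4 at a fold of 1.5. On PLX5622 at 7 dpi the count went from 0 to 1 with TMM, and to 2 with DESeq2 factors or at a fold of 1.5. Members higher on PLX5622 at 28 dpi went from 1 to 0 with TMM, DESeq2 factors or a minimum of 100 UMIs, to 2 in cells with at least 500 genes, with a minimum of 20 UMIs or with none, and to 3 at a fold of 1.5. In the oligodendrocyte lineage at 7 dpi the count went from 2 to 1 with TMM, cells with at least 500 genes, Scrublet calls left out, few myeloid UMIs, thinning or equal weight, and to 0 with DESeq2 factors. At 28 dpi it went from 0 to 1 with cells with at least 500 genes, thinning, equal weight or without the cell with most UMIs, and to 2 at a fold of 1.5, and on PLX5622 against vehicle at 28 dpi from 1 to 0 with few myeloid UMIs or equal weight and to 2 at a fold of 1.5. The scaling factors moved the median of all genes, in vehicle astrocytes at 28 dpi against sham by 0.24 with TMM.

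With clusters other than microglia and MDMs weighted by their cells, the share of UMIs was 74.6% for *Vcan*, 65.6% for *Ncan*, 91.6% for *Bcan*, 72.3% for *Cspg5* and 57.4% for *Ptprz1* in the cluster named for each above (astrocytes for *Ncan* and *Ptprz1*). Without thinning, the share of cells with a UMI was 85.5% for *Vcan*, 38.0% for *Ncan*, 59.2% for *Cspg4*, 84.3% for *Cspg5*, 83.1% for *Ptprz1*, 3.53% for *Tnc* and 38.0% for *Tnr* in the oligodendrocyte lineage and 83.7% for *Bcan* in astrocytes. Depth limits the oligodendrocyte lineage in sham, with 22 and 4 cells, and astrocytes at 7 dpi, with 69 and 39.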
